A study of Homo sapiens with 8 samples.

Results

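The genes described here are the CDK inhibitors and G1 cyclins, 10 genes chosen by name from the 25369 named genes of the count table: the Cip/Kip inhibitors CDKN1A, CDKN1B and CDKN1C, the INK4 inhibitors CDKN2A, CDKN2B, CDKN2C and CDKN2D, the D-type cyclins CCND1 and CCND2, and the E-type cyclin CCNE2. Poly(A) RNA was sequenced from UWB1.289, a human ovarian cancer cell line without functional BRCA1 (BRCA1-null), and from its derivative carrying added wild-type BRCA1 (BRCA1+). Each line was treated for 24 h with 0.5 uM entinostat, which inhibits class I histone deacetylases, or with the vehicle DMSO as control. The 4 groups (BRCA1+ DMSO, BRCA1+ entinostat, BRCA1-null DMSO, BRCA1-null entinostat) had 2 libraries each, and all 8 libraries came from cells in the same medium. The labels do not say whether the libraries of a group came from separate cultures, so p-values measure only the spread between these libraries. There was 1 derivative line, so that an effect of BRCA1 cannot be told apart from any other difference between the lines.

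D-type cyclins bind CDK4 and CDK6, and E-type cyclins bind CDK2. These complexes phosphorylate the retinoblastoma protein, which frees E2F factors to switch on the genes of DNA replication. INK4 proteins bind CDK4 and CDK6 and keep D-type cyclins off them, while Cip/Kip proteins bind cyclin-CDK complexes and block above all CDK2. CDKN1A (p21) is a target of p53 and is among the genes best known to be raised by histone deacetylase inhibitors.

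The sequences just upstream of the transcription start are shown for CDKN1A and CDKN2B, the members called higher with entinostat in both lines, and for CDKN1B, the most abundant Cip/Kip member, whose difference with entinostat did not pass the test in either line. Each is the 250 bases before the annotated start, from RefSeq on GRCh38.p14, written on the gene's own strand: chr6:36678464-36678713 on the plus strand for CDKN1A, chr9:22009306-22009555 on the minus strand for CDKN2B and chr12:12717118-12717367 on the plus strand for CDKN1B. Capitals mark the GC box, the letters GGGCGG on either strand, which Sp1-family factors bind.
CDKN1A: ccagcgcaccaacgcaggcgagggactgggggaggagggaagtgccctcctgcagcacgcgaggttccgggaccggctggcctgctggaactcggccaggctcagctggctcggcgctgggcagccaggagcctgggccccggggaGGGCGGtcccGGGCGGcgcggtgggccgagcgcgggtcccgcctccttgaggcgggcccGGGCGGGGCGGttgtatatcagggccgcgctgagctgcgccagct
CDKN2B: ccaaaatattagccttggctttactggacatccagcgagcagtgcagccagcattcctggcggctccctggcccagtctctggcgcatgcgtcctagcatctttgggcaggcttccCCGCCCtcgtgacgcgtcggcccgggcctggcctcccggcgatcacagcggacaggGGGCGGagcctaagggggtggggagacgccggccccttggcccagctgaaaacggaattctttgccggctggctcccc
CDKN1B: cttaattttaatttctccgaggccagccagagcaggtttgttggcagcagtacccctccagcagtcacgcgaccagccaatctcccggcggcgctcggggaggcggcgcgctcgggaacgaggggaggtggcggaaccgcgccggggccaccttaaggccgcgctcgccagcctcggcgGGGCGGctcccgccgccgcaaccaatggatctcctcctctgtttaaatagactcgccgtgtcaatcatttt

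CDKN1A held 4 GC boxes in this window, CDKN2B held 2 and CDKN1B held 1, with matches allowed to overlap. RefSeq promoter sequences were matched for 6 of the 10 members. There were 9 sequences in all because CDKN2A and CDKN2C have more than 1 start in that set. A gene, CDKN1A included, may have further starts that the set does not hold. CDKN1C, CCND1, CCND2 and CCNE2 were not matched. A GC box lay in 7 of the 9 sequences and in at least 1 sequence of each of the 6 members, whereas 42.6% of 35116 human promoter windows of the same length held it. The starts of CDKN2C held 0, 5 and 1 GC boxes, CDKN2D held 2, and the starts of CDKN2A held 0 and 1. None of these genes passed the test with entinostat in either line. Whether the number of GC boxes goes with the entinostat values was not tested. An E2F-type site, searched on either strand as the letters TTCGCGC and also as TTGGCGC and as TTCCCGC, lay in 1 of the 9 sequences, a start of CDKN2C, against 9.32% of all windows, and it overlapped no GC box. TATAAA on either strand was in 0 of the 9, against 10.7% of all windows. The CDKN1A window was 76.4% G and C, that of CDKN2B 66.4% and that of CDKN1B 64.4%, and the median of all windows was 58.0%. The letters describe these windows only and do not show that a factor bound there.

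Total counts per library ranged from 31900158 to 53549893, so that 3 counts, the limit a count of 0 allows, stood for 0.0552 to 0.0946 CPM (counts scaled by library size). BRCA1 lay between 92.4 and 133 CPM in the 4 BRCA1+ libraries and between 17.6 and 22.4 CPM in the 4 BRCA1-null libraries, in the direction of the labels. Markers of ovarian epithelial carcinoma were present at 329 to 419 CPM for PAX8, 78.1 to 203 CPM for MUC16, 506 to 638 CPM for EPCAM and 3101 to 6052 CPM for the keratins KRT7, KRT8 and KRT18. WT1, another marker of that list, had 1 to 20 counts per library. Of 6 immune and endothelial markers, CD3E had 0 to 4 counts per library, and the 6 summed to 13.9 to 21.6 CPM in BRCA1+ DMSO, 35.1 to 46.1 with entinostat in BRCA1+, 36.2 to 55.0 in BRCA1-null DMSO and 75.4 to 94.0 with entinostat in BRCA1-null. Most of that rise was CDH5, a cadherin of endothelial cells that was called higher in every pairwise comparison. Without it the sums were 9.71 to 14.8 CPM in BRCA1+ DMSO and 15.5 to 19.0 with entinostat, and 8.32 to 9.34 in BRCA1-null DMSO and 9.84 to 12.8 with entinostat, so that they were higher with entinostat in both lines without overlap. CD14, of monocytes, had group means of 2.61 and 4.61 CPM in BRCA1+ (DMSO, entinostat) and 0.646 and 1.63 CPM in BRCA1-null. The part of these markers in the results was not tested.

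All 10 members passed the filter on low counts and were among the 17714 genes tested. Compared per gene length, as RPKM (CPM divided by gene length in kilobases), CCND1 and CDKN2A stood far above the rest. The mean over the 8 libraries was 221 RPKM for CCND1 (range 177 to 270), which was above 98.1% of tested genes, and 136 RPKM for CDKN2A (103 to 172). CCND2 followed at 41.7 RPKM (36.3 to 49.8), CDKN1B at 15.7 (11.7 to 19.8) and CCNE2 at 8.66 (7.33 to 10.1). CDKN2D had 5.74 RPKM, CDKN2B 5.42, CDKN1A 2.95 and CDKN2C 2.38. CDKN1C was the lowest at 0.571 RPKM (0.347 to 0.881). In this order the library ranges of CCNE2 and CDKN2D, CDKN2D and CDKN2B, CDKN2B and CDKN1A, and CDKN1A and CDKN2C overlapped, and those of the other neighbours did not. The order of the lower genes differed between groups: with DMSO the mean of CDKN1A was 1.52 RPKM in BRCA1+ and 1.62 in BRCA1-null, below CDKN2C at 2.51 and 1.97, and in BRCA1+ DMSO CDKN2B (6.0) was above CDKN2D (5.35).

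**Figure D1:**
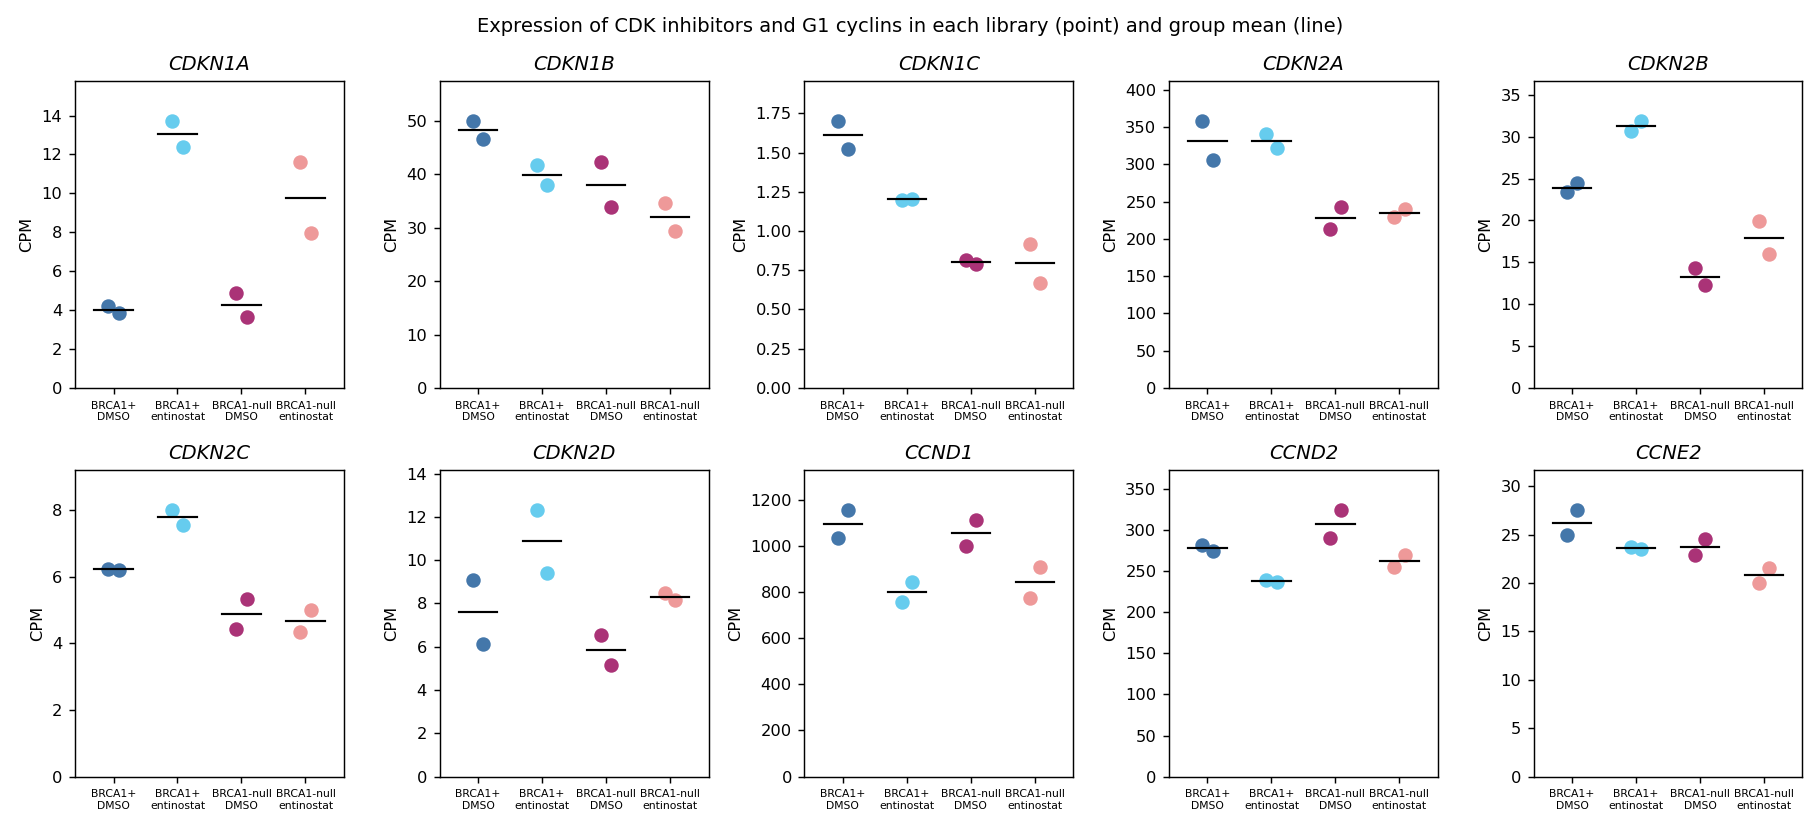
Level of each of the 10 genes in the 8 libraries, in CPM on linear axes from 0 that differ between genes, with 1 point per library and a line at the mean of each group (n = 2). The CDKN1A points of the entinostat groups lie at 7.95 to 13.7 CPM, all above the DMSO points at 3.66 to 4.86 CPM, and CDKN2A and CDKN2B lie lower in all BRCA1-null libraries than in the BRCA1+ libraries of the same treatment.

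The first question was how the members changed with entinostat within each line. In BRCA1+ cells CDKN1A and CDKN2B rose and CCND1 and CCND2 fell, so that 4 of the 10 members passed the test, where 14.1% of all 17714 tested genes did (8.15% higher and 6% lower). In BRCA1-null cells CDKN1A and CDKN2B rose and no lower value passed the test, so that 2 of 10 passed, where 10.8% of all tested genes did (7.57% higher and 3.19% lower). The test was edgeR's quasi-likelihood F test on the counts, two-sided, with Benjamini-Hochberg adjustment over all tested genes and a threshold of 0.05 on the adjusted p, and log2 fold changes are given with their SE. In bulk RNA a shift in the number of cells at one stage of the cycle and a shift in RNA per cell cannot be told apart.

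CDKN1A, which encodes p21 and lies at chr6:36644237-36655116 (hg19, plus strand), had 4.20 and 3.83 CPM in the BRCA1+ DMSO libraries and 13.7 and 12.4 CPM in the BRCA1+ entinostat libraries. In BRCA1-null cells it had 4.86 and 3.66 CPM with DMSO and 11.6 and 7.95 CPM with entinostat. Every entinostat library was above every DMSO library, and the BRCA1-null entinostat libraries were the most spread. The rise was 3.24-fold in BRCA1+ cells (log2 fold change 1.69 ± 0.208, adjusted p = 0.00176) and 2.33-fold in BRCA1-null cells (1.22 ± 0.204, adjusted p = 0.00863). These were the largest changes with entinostat among the members in each line. The BRCA1+ call held under all 15 other settings tried (log2 fold change 1.63 to 1.77). The BRCA1-null call was lost in a fit of those 4 libraries alone (adjusted p = 0.0505) and without BRCA1-null DMSO replicate 2 (adjusted p = 0.0640).

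CDKN1B, which encodes p27, had 50.0 and 46.7 CPM in BRCA1+ DMSO, 41.8 and 37.9 in the BRCA1+ entinostat pair, 42.4 and 33.8 in BRCA1-null DMSO and 34.7 and 29.4 in BRCA1-null entinostat. The libraries of BRCA1+ cells did not overlap between treatments and those of BRCA1-null cells did. Its log2 fold change with entinostat was -0.28 ± 0.119 in BRCA1+ cells (adjusted p = 0.155) and -0.24 ± 0.120 in BRCA1-null (adjusted p = 0.226). CDKN1C, which encodes p57 and is an imprinted gene, had few reads, with 68 and 70 counts in BRCA1+ DMSO, 38 and 56 in the BRCA1+ entinostat pair, 37 and 43 in BRCA1-null DMSO and 43 and 28 in BRCA1-null entinostat. Its log2 fold change with entinostat was -0.42 ± 0.232 in BRCA1+ cells (adjusted p = 0.277) and -0.0013 ± 0.280 in BRCA1-null (adjusted p = 0.998).

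Within the Cip/Kip family the balance between members moved with treatment. Of the summed RPKM of the 3 genes, CDKN1A took 7.15% and 7.01% in the BRCA1+ DMSO libraries and 23.2% and 23.1% in the BRCA1+ entinostat libraries. In BRCA1-null cells it took 9.67% and 9.13% with DMSO and 23.7% and 20.1% with entinostat. CDKN1B took 88.1% to 89.2% in the DMSO libraries and 73.8% to 77.6% in the entinostat libraries. The family's sum was 21.5 ± 1.09 RPKM (SD, n = 2) in BRCA1+ DMSO and 21.4 ± 1.45 in the BRCA1+ entinostat pair, and 17.1 ± 2.72 in BRCA1-null DMSO and 16.8 ± 2.56 in BRCA1-null entinostat. CDKN1B was the most abundant Cip/Kip transcript per length in all 8 libraries. The shares and sums were not tested.

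CDKN2B, which encodes p15 and lies at chr9:22002902-22009312 (hg19, minus strand), had 23.3 and 24.4 CPM in BRCA1+ DMSO and 30.7 and 31.9 CPM in BRCA1+ entinostat. In BRCA1-null cells it had 14.3 and 12.3 CPM with DMSO and 19.9 and 15.9 CPM with entinostat. The treated libraries were above the DMSO libraries in each line, without overlap. It rose 1.31-fold in BRCA1+ (log2 fold change 0.39 ± 0.111, adjusted p = 0.0481) and 1.36-fold in BRCA1-null (0.44 ± 0.121, adjusted p = 0.0496). Both calls lay close to the threshold: the BRCA1+ call was lost under 5 of 15 other settings (adjusted p 0.0174 to 0.218), among them without any 1 library of that line. The BRCA1-null call was lost under 12 of 15 (adjusted p 0.0203 to 0.274), among them without any library but BRCA1-null entinostat replicate 2.

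The antisense gene CDKN2B-AS1 overlaps CDKN2B, and whether the counting used strand is not given in the sources used here. It had 186 to 319 counts per library, and its log2 fold change with entinostat was 0.099 in BRCA1+ and -0.14 in BRCA1-null, neither of which passed the test.

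CDKN2A, beside CDKN2B at chr9:21967751-21994490 (hg19, minus strand), encodes p16 and, from another first exon and reading frame, ARF, and its row of the table pools both. It had 358 and 306 CPM in BRCA1+ DMSO and 341 and 322 CPM in the BRCA1+ entinostat pair, and 213 and 243 CPM in BRCA1-null DMSO and 230 and 240 CPM in BRCA1-null entinostat. The treatments overlapped in each line. The log2 fold change with entinostat was -0.0018 in BRCA1+ cells (95% interval -0.20 to 0.19, adjusted p = 0.993) and 0.040 in BRCA1-null (-0.16 to 0.24, adjusted p = 0.815). With entinostat CDKN2B passed the test, close to the threshold, and CDKN2A did not. The difference between the 2 genes was not tested, so these outcomes do not show that their responses differ.

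CDKN2C, which encodes p18, had 6.23 and 6.21 CPM in BRCA1+ DMSO and 8.01 and 7.57 CPM in the BRCA1+ entinostat pair, a log2 fold change of 0.32 ± 0.137 that did not pass the test (adjusted p = 0.158). In BRCA1-null cells it had 4.44 and 5.34 CPM with DMSO and 4.35 and 5.00 CPM with entinostat, with overlap (-0.076 ± 0.148, adjusted p = 0.790). CDKN2D, which encodes p19, ranged from 5.17 to 12.3 CPM, and its replicates differed most in BRCA1+ DMSO, at 9.10 and 6.12 CPM. Its log2 fold change was 0.50 ± 0.205 in BRCA1+ cells (adjusted p = 0.139) and 0.52 ± 0.212 in BRCA1-null (adjusted p = 0.153), larger than those of CDKN2B but with a larger SE.

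CCND1, which encodes cyclin D1 and lies at chr11:69455873-69469242 (hg19, plus strand), had 1034 and 1157 CPM in BRCA1+ DMSO and 758 and 843 CPM in BRCA1+ entinostat. In BRCA1-null cells it had 999 and 1112 CPM with DMSO and 774 and 909 CPM with entinostat. The treated libraries were below the DMSO libraries in both lines, without overlap. It fell 1.37-fold in BRCA1+ (log2 fold change -0.45 ± 0.0934, adjusted p = 0.0143), and its log2 fold change in BRCA1-null was -0.33 ± 0.0932 (adjusted p = 0.0555). The BRCA1+ call was lost without BRCA1+ DMSO replicate 2 (adjusted p = 0.0933) and without BRCA1+ entinostat replicate 1 (0.112). The BRCA1-null difference passed under 3 of 15 other settings (adjusted p 8.81e-04 to 0.260), among them DESeq2, an alternative count test (0.00900), and without BRCA1-null entinostat replicate 2 (0.0385).

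CCND2, which encodes cyclin D2 and lies at chr12:4382902-4414522 (hg19, plus strand), had 282 and 275 CPM in BRCA1+ DMSO and 240 and 237 CPM in the BRCA1+ entinostat pair, and 291 and 325 CPM in BRCA1-null DMSO and 255 and 270 CPM in BRCA1-null entinostat. The treated libraries were again the lower ones in each line. The log2 fold changes were alike in size, -0.22 ± 0.0635 in BRCA1+ cells (adjusted p = 0.0467) and -0.23 ± 0.0631 in BRCA1-null (adjusted p = 0.0503), and fell on opposite sides of the threshold. The BRCA1+ call was lost under 9 of 15 other settings (adjusted p 0.0158 to 0.198), among them without any library of that line or either BRCA1-null entinostat library. The BRCA1-null difference passed under 6 of 15 (adjusted p 0.0178 to 0.278), among them with DESeq2 (0.0290) and without BRCA1-null DMSO replicate 1 (0.0296).

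CCND3, the remaining D-type cyclin, rose in BRCA1+ cells from 50.8 and 46.5 CPM to 66.7 and 63.5 CPM (log2 fold change 0.42 ± 0.0992, adjusted p = 0.0249), a call lost without any 1 of these 4 libraries (0.0511 to 0.137). In BRCA1-null cells it had 29.0 and 23.7 CPM with DMSO and 32.3 and 29.0 CPM with entinostat (0.23 ± 0.106, adjusted p = 0.206). Its share of the summed D-type cyclin RPKM was 5.35% and 4.51% in BRCA1+ DMSO and 8.99% and 7.95% in the BRCA1+ entinostat pair, while CCND1 took 75.3% to 82.6% in the 8 libraries. The D-type sum was 313 ± 18.5 RPKM in BRCA1+ DMSO and 244 ± 13.0 in the BRCA1+ entinostat pair, and 302 ± 21.1 in BRCA1-null DMSO and 246 ± 23.3 in BRCA1-null entinostat (SD, n = 2). The sum was thus lower with entinostat by more than the SD in both lines.

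CCNE2, which encodes cyclin E2, ranged from 20.0 to 27.6 CPM over the 8 libraries. Its log2 fold change with entinostat was -0.15 ± 0.0869 in BRCA1+ cells (adjusted p = 0.292) and -0.20 ± 0.0865 in BRCA1-null (adjusted p = 0.182). CCNE1, the more abundant E-type cyclin with 78.6% to 85.8% of the E-type RPKM, had 108 and 83.0 CPM in BRCA1+ DMSO and 77.3 and 61.9 CPM in the BRCA1+ entinostat pair, a difference that did not pass the test (-0.46 ± 0.144, adjusted p = 0.0648). It passed under 3 of 15 other settings (adjusted p 0.00139 to 0.330), among them DESeq2 (0.00634) and without BRCA1+ DMSO replicate 2 (0.0422). In BRCA1-null its log2 fold change was -0.23 ± 0.143 (adjusted p = 0.348). INTS8 overlaps CCNE2 on the other strand and had 2069 to 3736 counts per library. Its log2 fold change with entinostat was 0.11 in BRCA1+ and 0.17 in BRCA1-null, with neither past the test.

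**Figure D2:**
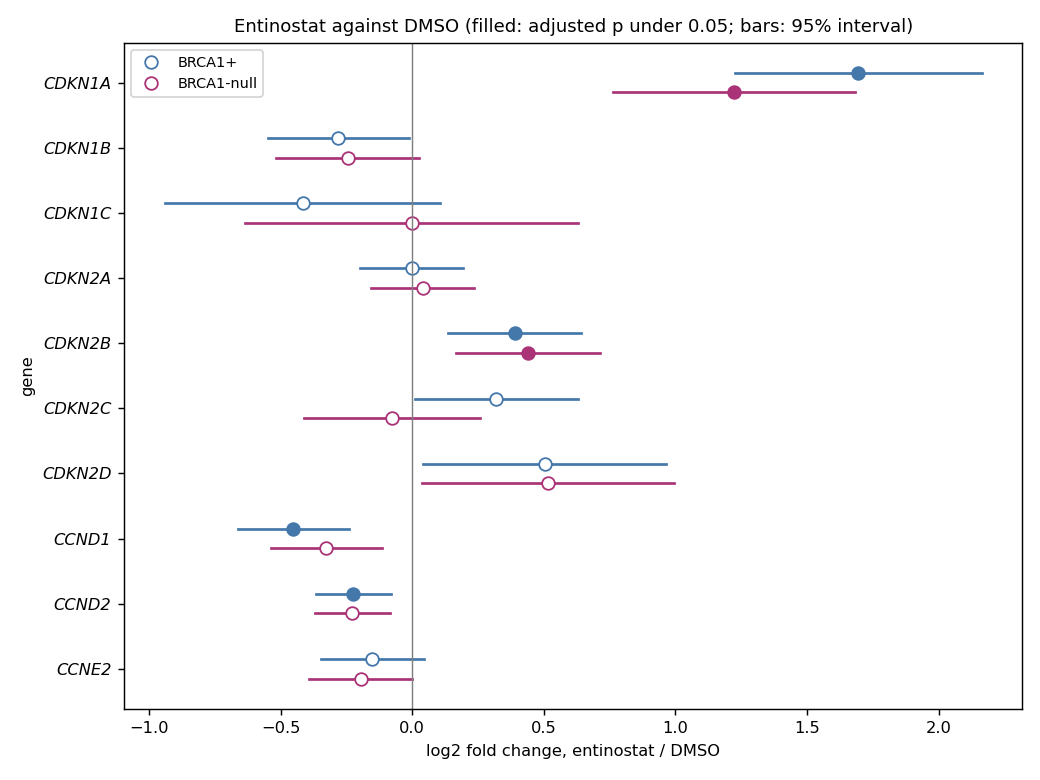
Log2 fold change of entinostat against DMSO for each of the 10 genes in BRCA1+ and in BRCA1-null cells, with 95% intervals and filled symbols for genes past the test. CDKN1A stands apart at 1.69 and 1.22, CDKN2B is at 0.39 and 0.44, and CCND1 is at -0.45 and -0.33.

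Counted by libraries, the treated and DMSO values did not overlap for 9 members in BRCA1+ cells (4 higher and 5 lower with entinostat) and for 6 members in BRCA1-null cells (3 higher and 3 lower). Over all tested genes 57% did not overlap in BRCA1+ (28.9% higher and 28.1% lower) and 54.7% in BRCA1-null (30% higher and 24.7% lower). The median log2 fold change of the 10 members was -0.077 in BRCA1+, beside 0.00041 over all tested genes, and -0.039 in BRCA1-null, beside 0.019. The count of 4 in BRCA1+ cells was smaller without any 1 library of that line, which leaves 1 library in a group. Fewer of all tested genes were called in these fits too. The log2 fold change of CDKN1A in BRCA1+ stayed between 1.63 and 1.77 without any 1 library. In BRCA1-null cells fewer members and fewer of all tested genes were called without BRCA1-null DMSO replicate 2. In that fit CDKN1A had a log2 fold change of 1.02.

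**Figure D3:**
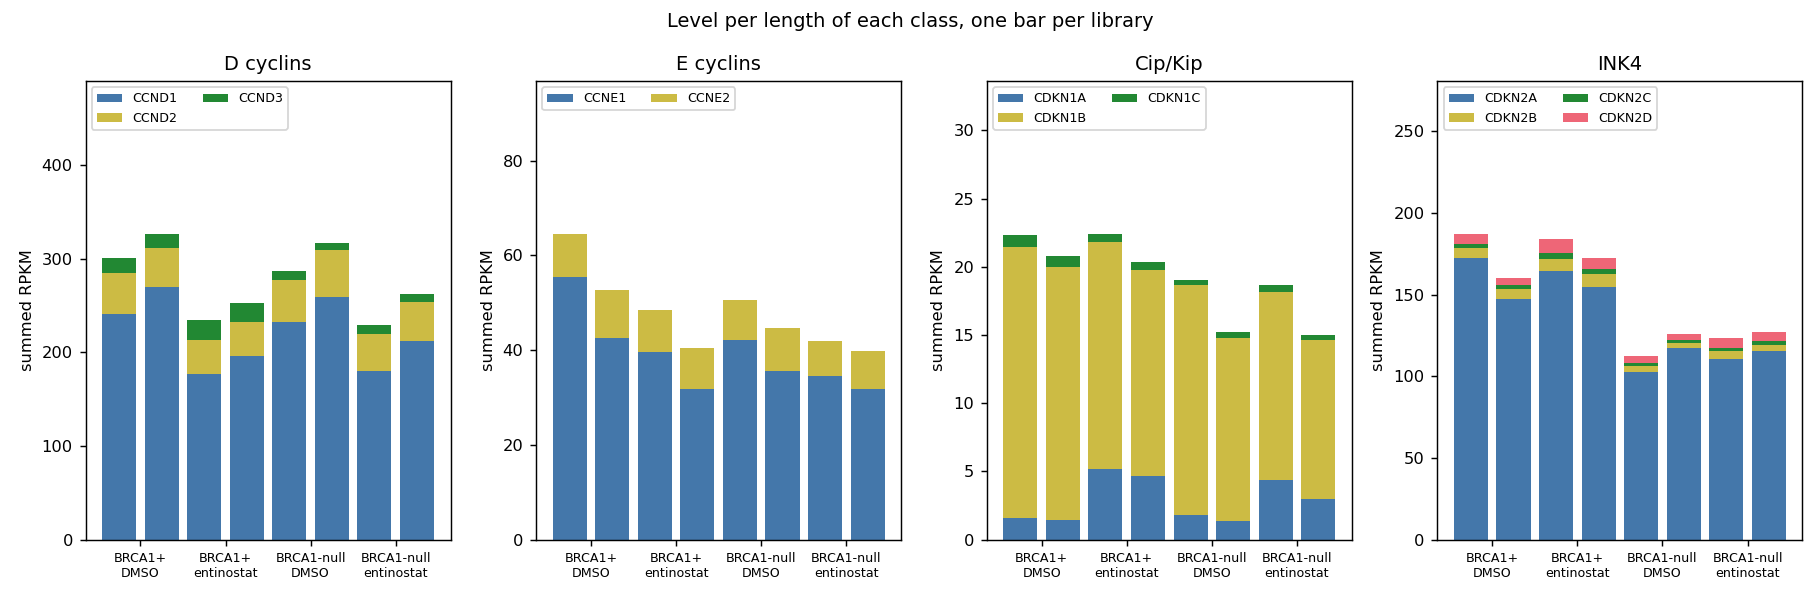
Summed level of the D-type cyclins, E-type cyclins, Cip/Kip inhibitors and INK4 inhibitors in each library, in RPKM, with 1 bar per library (2 per group) stacked by gene. The D-type sum is lower with entinostat in both lines, and the INK4 sum is lower in BRCA1-null (means of 119 RPKM with DMSO and 125 with entinostat) than in BRCA1+ (174 and 178).

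The second question was how the lines differed under the same treatment. With DMSO, CDKN1B, CDKN1C, CDKN2A and CDKN2B were lower in BRCA1-null than in BRCA1+ cells, and no member was higher, so that 4 of 10 passed the test, where 42.2% of all tested genes did. With entinostat, CDKN2A, CDKN2B and CDKN2C were lower in BRCA1-null cells and no member was higher, so that 3 of 10 passed, where 39.4% did. Over all tested genes 21.1% were called higher and 21% lower with DMSO, and 20.5% higher and 18.9% lower with entinostat. Both counts of members were near the share over all genes.

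CDKN2A was 1.45-fold lower in BRCA1-null cells with DMSO (log2 fold change -0.54 ± 0.0870, adjusted p = 0.00109) and 1.41-fold lower with entinostat (-0.50 ± 0.0871, adjusted p = 0.00174). CDKN2B was 1.80-fold lower with DMSO (-0.85 ± 0.118, adjusted p = 4.51e-04) and 1.74-fold lower with entinostat (-0.80 ± 0.114, adjusted p = 5.49e-04). For both genes every BRCA1-null library was below every BRCA1+ library of the same treatment, and the calls held under all 15 other settings. CDKN2B-AS1, which overlaps CDKN2B, was not called, with log2 fold changes of -0.0026 and -0.24.

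CDKN2C was 1.66-fold lower in BRCA1-null cells with entinostat (-0.73 ± 0.143, adjusted p = 0.00313), a call that held under all 15 other settings. With DMSO its log2 fold change was -0.34 ± 0.141 (adjusted p = 0.0818). CDKN2D had -0.38 ± 0.216 with DMSO (adjusted p = 0.194) and -0.36 ± 0.201 with entinostat (adjusted p = 0.187). The INK4 sum was 174 ± 19.2 RPKM in BRCA1+ DMSO and 119 ± 9.43 in BRCA1-null DMSO, and 178 ± 8.08 and 125 ± 2.75 with entinostat (SD, n = 2). CDKN2A made up 89.3% to 93.0% of that sum in the 8 libraries.

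CDKN1C was 2.00-fold lower in BRCA1-null cells with DMSO (-1.0 ± 0.239, adjusted p = 0.00867), at 0.813 and 0.791 CPM against 1.70 and 1.53 CPM. DESeq2 did not call it (adjusted p = 0.0582). With entinostat its log2 fold change was -0.59 ± 0.269 (adjusted p = 0.116). CDKN1B was lower with DMSO (-0.35 ± 0.118, adjusted p = 0.0402), a call lost under 7 of 15 other settings, among them without any BRCA1+ library (0.0507 to 0.148) or BRCA1-null DMSO replicate 2 (0.260). With entinostat it had -0.31 ± 0.122 (adjusted p = 0.0719), a difference that passed under 6 of 15 other settings (adjusted p 0.00414 to 0.321). They included DESeq2 (0.0312), only the groups compared (0.0335) and the fits without BRCA1-null DMSO replicate 1 (0.0313), BRCA1-null DMSO replicate 2 (0.0359) or BRCA1-null entinostat replicate 1 (0.0483). CDKN1A did not pass the test between the lines: its log2 fold change was 0.074 ± 0.240 with DMSO (adjusted p = 0.831) and -0.40 ± 0.179 with entinostat (95% interval -0.80 to 0.0047, adjusted p = 0.109). The latter passed under 2 of 15 other settings (adjusted p 0.0124 to 0.502), among them without BRCA1-null entinostat replicate 1 (0.0166).

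No cyclin among the members passed the test between the lines in the fit of all 8 libraries. CCND1 had a log2 fold change of -0.054 ± 0.0931 with DMSO (adjusted p = 0.678) and 0.072 ± 0.0933 with entinostat (adjusted p = 0.588). CCND2 had 0.15 ± 0.0631 (adjusted p = 0.0894) and 0.14 ± 0.0635 (adjusted p = 0.107). The first of these passed under 4 of 15 other settings (adjusted p 0.0211 to 0.515), among them upper-quartile scaling (0.0322), the stricter filter (0.0394) and without BRCA1-null DMSO replicate 1 (0.0211). CCNE2 had -0.14 ± 0.0849 (adjusted p = 0.204) and -0.19 ± 0.0886 (adjusted p = 0.125). CCND3, which is no member, was lower in BRCA1-null cells under both treatments (-0.89 ± 0.103, adjusted p = 1.63e-04, and -1.08 ± 0.102, adjusted p = 5.34e-05). CCNE1 had -0.33 ± 0.141 with DMSO (adjusted p = 0.0886, and 0.0318 by DESeq2) and -0.099 with entinostat (adjusted p = 0.633). The DMSO difference of CCNE1 passed under 3 of 15 other settings, among them without BRCA1+ DMSO replicate 2 (0.0267). INTS8, which overlaps CCNE2, was higher in BRCA1-null cells with entinostat (0.26, adjusted p = 0.0263).

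**Figure D4:**
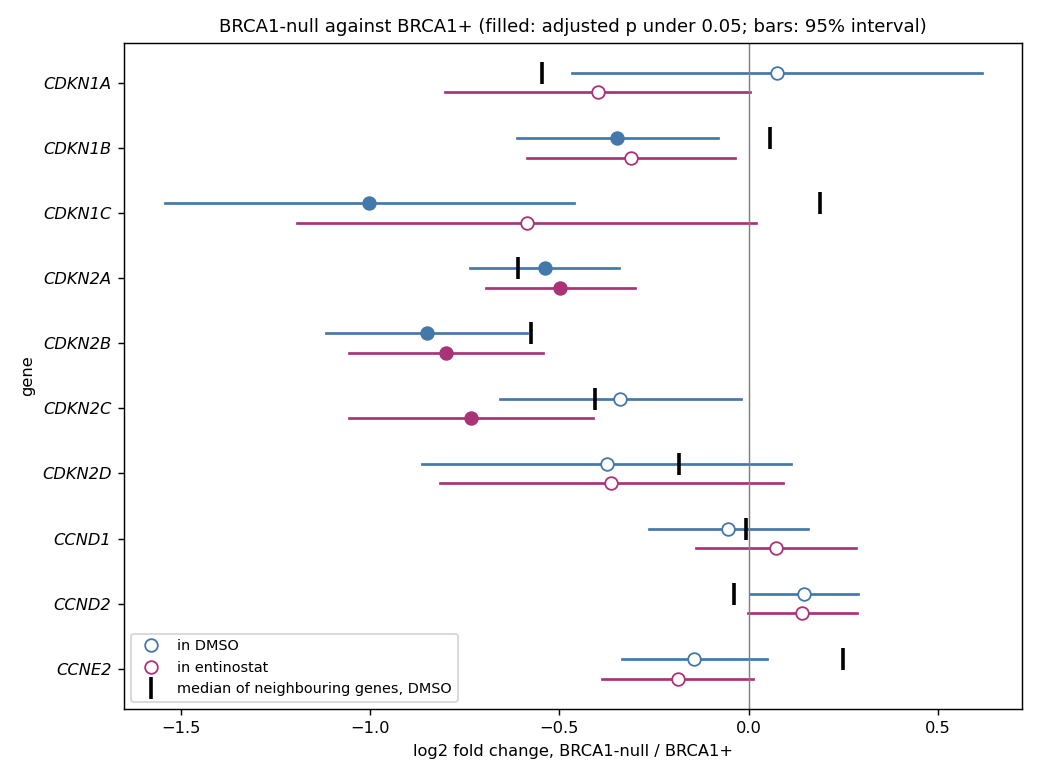
Log2 fold change of BRCA1-null against BRCA1+ for each of the 10 genes with DMSO and with entinostat, with 95% intervals and filled symbols for genes past the test. The called genes are lower in BRCA1-null cells, from -0.35 for CDKN1B to -1.0 for CDKN1C with DMSO, and vertical ticks mark the median over 20 neighbouring genes with DMSO.

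Libraries of the lines did not overlap for 7 members with DMSO (1 higher and 6 lower in BRCA1-null) and for 9 with entinostat (1 higher and 8 lower), where 70.9% of all tested genes (36% higher and 34.8% lower) and 69.5% (36.3% higher and 33.3% lower) did not overlap. The median log2 fold change of the members was -0.34 with DMSO, beside 0.012 over all tested genes, and -0.38 with entinostat, beside 0.019. With entinostat more members were called without BRCA1-null entinostat replicate 1, while fewer of all tested genes were.

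Genes beside the members on the chromosome were looked at for the same contrast, a description chosen after the data were seen. Of the 20 tested genes nearest to CDKN2A, 10 on each side, 11 were called lower and 2 higher in BRCA1-null DMSO, with a median log2 fold change of -0.61, where 21% of all tested genes were lower and 21.1% higher. These neighbours spanned positions 19376254 to 27062931 of chromosome 9 (hg19) and included CDKN2B, itself called lower. Around CDKN2B, which has mostly the same neighbours, 11 were lower and 2 higher (median -0.57). CDKN2A, itself called lower, was among them, so the 2 sets are not independent of the members. Around CDKN2C 11 were lower and 2 higher (median -0.41). Around CDKN1A 13 were lower and 0 higher (median -0.55), while CDKN1A itself had 0.074. For CDKN2D, itself at -0.38, 9 neighbours were lower and 1 higher (median -0.18). With entinostat, where CDKN2C was called, 12 of its neighbours were lower and 2 higher (median -0.46). In that comparison 18.9% of all tested genes were lower and 20.5% higher. Around CCND1, CCND2 and CDKN1B the medians with DMSO were -0.0068, -0.039 and 0.056. Around CDKN1C, itself at -1.0 with DMSO, 5 were higher and 1 lower (median 0.19), and around CCNE2, itself at -0.14, 7 were higher and 3 lower (median 0.25). A copy-number difference between the lines at these loci was not tested.

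The last question was whether the entinostat effect differed between the lines. The interaction (effect in BRCA1-null minus effect in BRCA1+) was called by edgeR for 0 of the 10 members, where 0% of tested genes passed. At an unadjusted p under 0.05 it was called for 0 members and 827 of the 17714 genes (4.67%), and DESeq2 called 0 members and 11 genes. The adjusted p of the members ran from 0.967 to 1.00. The difference was -0.47 for CDKN1A (95% interval -1.15 to 0.20), -0.40 for CDKN2C (-0.85 to 0.059), 0.42 for CDKN1C (-0.41 to 1.24) and 0.13 for CCND1 (-0.17 to 0.42). Each of these intervals included 0. The pairwise comparisons share libraries, so that a DMSO library entered both an entinostat effect and a line difference.

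The partners of the members were described from 3 further lists. The first held 32 tested genes, namely CDKs, other cyclins, CDC25 phosphatases, retinoblastoma family proteins and E2F factors. With entinostat in BRCA1+ cells 2 of them rose and 7 fell (median log2 fold change -0.092), where 8.15% of all tested genes rose and 6% fell. E2F2, an activating E2F, rose (0.49 ± 0.139, adjusted p = 0.0487). This call was lost under 8 of 15 other settings, among them DESeq2 (adjusted p = 0.0933). CCNA2, the S-phase cyclin, fell (-0.32 ± 0.0691, adjusted p = 0.0168), as did E2F5 (-0.41 ± 0.0918, adjusted p = 0.0200). Fewer of the 32 were called when any 1 library of BRCA1+ cells was left out, and so were fewer of all tested genes. In BRCA1-null cells edgeR called 0 of the 32, with 6 at an unadjusted p under 0.05, and DESeq2 called 0. Between the lines with DMSO, 11 of the 32 were lower in BRCA1-null cells and 1 was higher (median -0.12), where 21% and 21.1% of all tested genes were. E2F2 was lower (-1.31 ± 0.165, adjusted p = 2.62e-04), as was CDC25C, a mitotic phosphatase (-1.10 ± 0.108, adjusted p = 6.06e-05). E2F5 was higher (0.38 ± 0.0846, adjusted p = 0.00614). On the other strand FAM53C overlaps CDC25C (2103 to 3741 counts per library) and C8orf59 overlaps E2F5 (2574 to 4520). The part of these overlaps was not tested. With entinostat 8 were lower and 3 higher (median -0.062), where 18.9% and 20.5% of all tested genes were. CDK4, a kinase of the D-type cyclins named here outside the naming rule, was called in no comparison. CDK6, the other such kinase, was called between the lines with entinostat alone, with a log2 fold change of 0.25.

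Of 30 E2F target genes of S phase, 7 fell and 0 rose with entinostat in BRCA1+ cells (median -0.12), where 6% of all tested genes fell and 8.15% rose. In BRCA1-null cells 3 fell and 1 rose (median -0.096), where 3.19% fell and 7.57% rose. RRM2, a subunit of ribonucleotide reductase, fell in both lines (-0.42 ± 0.0556, adjusted p = 0.00239, and -0.38 ± 0.0561, adjusted p = 0.00520). UNG, the uracil glycosylase, fell in BRCA1+ (-0.39 ± 0.0820, adjusted p = 0.0154), and MCM4, a subunit of the replicative helicase, fell in BRCA1-null (-0.29 ± 0.0598, adjusted p = 0.0187). In BRCA1+ fewer of the list were called without entinostat replicate 1, DMSO replicate 2 or entinostat replicate 2. Fewer of all tested genes were called in these fits too. Between the lines with DMSO, 16 of the 30 were lower in BRCA1-null cells and 3 higher (median -0.30), where 21% of all tested genes were lower and 21.1% higher, with ORC1, of the origin recognition complex, at -0.70 ± 0.0688 (adjusted p = 6.12e-05). With entinostat 13 were lower and 4 higher (median -0.21), where 18.9% and 20.5% of all tested genes were. Fewer of the list and fewer of all tested genes were called without BRCA1+ entinostat replicate 2.

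Of 25 tested p53 target genes other than CDKN1A, 2 rose with entinostat in BRCA1+ cells and 0 fell (median -0.052), where 8.15% of all tested genes rose and 6% fell. They were TNFRSF10B, a death receptor (0.29 ± 0.0693, adjusted p = 0.0268, and 0.0663 to 0.137 without any 1 BRCA1+ library), and SPATA18, which had only 2 and 3 counts with DMSO and 13 and 13 with entinostat. In BRCA1-null cells edgeR called 0 of the 25, where it called 10.8% of all tested genes, with 4 at an unadjusted p under 0.05, and DESeq2 called 1. Between the lines with DMSO, 6 were higher and 8 lower in BRCA1-null cells (median 0.060), where 21.1% and 21% of all tested genes were. AEN, a nuclease, was higher (0.73 ± 0.0949, adjusted p = 3.13e-04) and CCNG1, cyclin G1, was lower (-0.91 ± 0.0705, adjusted p = 1.71e-05). PHLDA3, the farthest below 0, had 115 and 79 counts in BRCA1+ DMSO and 20 and 32 in BRCA1-null DMSO (-2.12 ± 0.450, adjusted p = 0.00483). With entinostat 6 were higher and 7 lower (median -0.24), where 20.5% and 18.9% of all tested genes were.

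**Figure D5:**
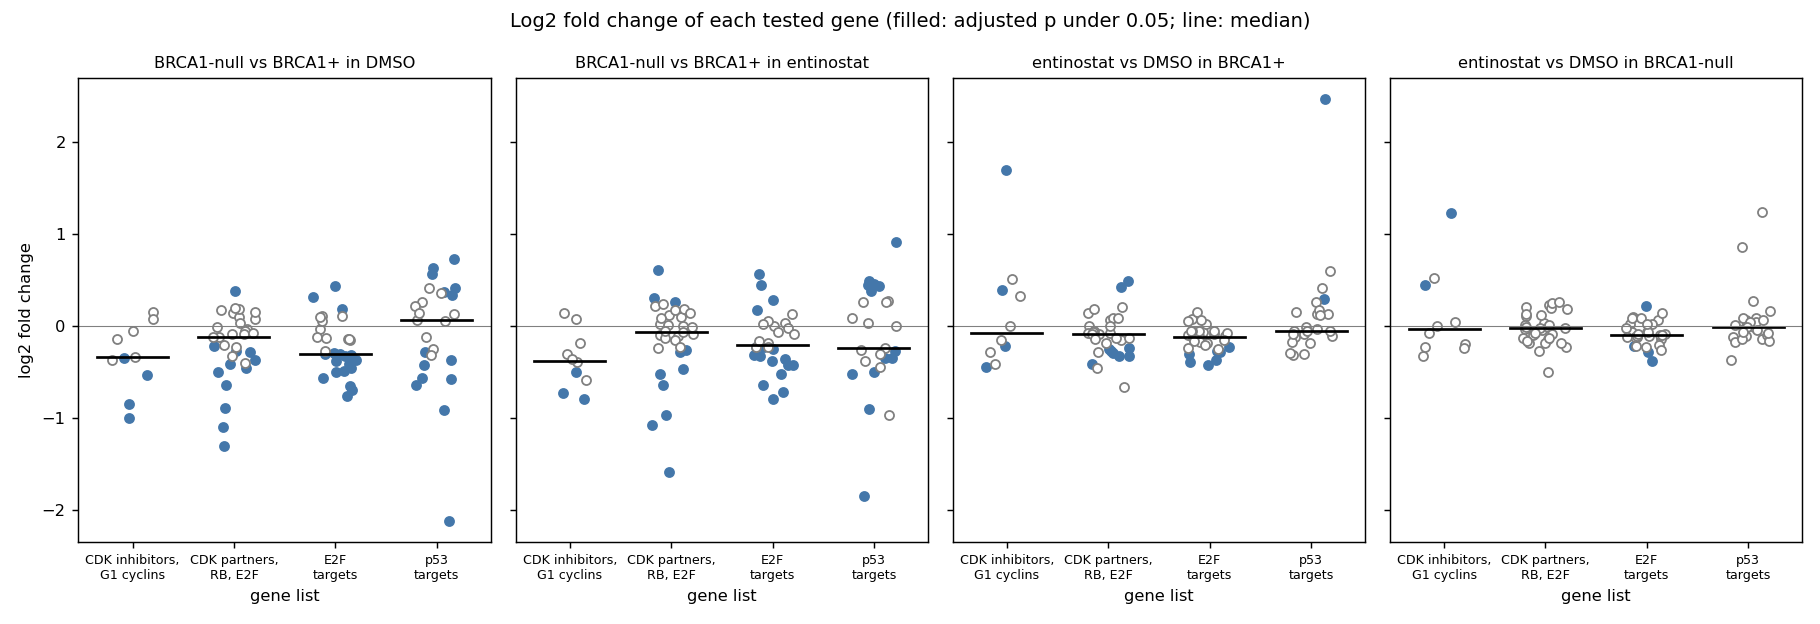
Log2 fold change of every tested gene of the 10 members and of the 3 further lists in the 4 pairwise comparisons, with 1 point per gene, filled where it passed the test, and a line at each list's median. For entinostat against DMSO the medians lie between -0.12 and -0.012, and CDKN1A is the member farthest above 0 in each line.

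The genes whose log2 CPM over the 8 libraries was most like that of CDKN1A were EPB41L1 (Pearson r = 0.992), a membrane skeleton protein, ZNF512 (0.992), a zinc finger protein, and PRKAB2 (0.989), a regulatory subunit of AMP-activated kinase. They were picked as the highest of 10405 genes whose mean log2 CPM was 3 or more, 8 of which were above 0.98. The libraries share treatment and line, so the values describe likeness of pattern only. With entinostat the log2 fold change of EPB41L1 was 0.62 in BRCA1+ and 0.41 in BRCA1-null, smaller than the 1.69 and 1.22 of CDKN1A.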

How the data were processed

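Poly(A) RNA of 8 libraries was sequenced. The authors aligned reads to hg19 with TopHat and deposited raw counts per gene, with each gene's position and length. How multiply mapped reads and strand were handled is not given in the sources used here, so counts of overlapping genes may hold each other's reads. The 1 row without a gene name held 0 counts.

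Counts were analysed with edgeR 4.0.16 (R 4.3.3): filterByExpr over the 4 groups kept 17714 of 25369 genes, followed by TMM scaling and 1 quasi-likelihood fit of all 8 libraries (4 residual degrees of freedom). Contrasts were two-sided, with Benjamini-Hochberg adjustment over all tested genes and a threshold of 0.05. CPM and RPKM were computed here from the counts, TMM-scaled library sizes and the deposited gene lengths. Intervals are 95%, for single genes and not adjusted. The fit was tested on simulated data for entinostat against DMSO in BRCA1+. At a true log2 fold change of 0.5 it called 13 of 40 changed genes, and 13 of 40 at -0.5. It called 34 of 39 at 1, 21 of 39 at -1 and 39 of 40 at 2. Among unchanged genes it called 9. Differences near 0.5 or smaller can thus often fail the test.

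Named were all members, BRCA1, CCND3, CCNE1, up to 2 called genes each way per list and contrast, and the 3 genes most correlated with CDKN1A. A gene that this rule names is not reported here. Members and lists were chosen with earlier results of these data known. Alternatives were DESeq2 1.42.0, other scaling and filters, fewer groups, a replicate block and leaving out each library.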

Additional observations from a re-analysis of the deposited data

How the results depend on the processing

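Each comparison was recomputed under other scaling, filters, tests and sample sets, and without each library. With the replicate number as a block, a pairing the labels do not state, the count of members called was 6 between lines with entinostat and 6 for entinostat in BRCA1-null. CDK partners were then 19 between lines with DMSO and 7 for entinostat in BRCA1-null. E2F targets were 11 and 8 and p53 targets 4 and 2 for entinostat in BRCA1+ and BRCA1-null. The block also called more of all 17714 tested genes. Between lines it called 8954 with DMSO and 8394 with entinostat, against 7472 and 6973 without it. For entinostat it called 4319 in BRCA1+ and 3641 in BRCA1-null, against 2505 and 1906. Deviations of same-numbered libraries correlated at 0.0523 to 0.287, all above 0. The highest values were within a line, 0.287 in BRCA1+ and 0.2 in BRCA1-null. The main fit used no block because the labels state no pairing. Whether same-numbered libraries share an effect was not tested, and the calls listed next depend on that choice. The block also called CCND1, CDKN1B and CDKN2D, each in its earlier direction, with entinostat in BRCA1-null (adjusted p 8.81e-04, 0.0336 and 0.0262) and CDKN1B and CDKN2D in BRCA1+ (0.0162 and 0.0165). Between lines it called CDKN2D (0.0453) and CCND2 (0.0470) with DMSO and CDKN1A (0.0124), CDKN1B (0.00414) and CDKN2D (0.0299) with entinostat, and of CCNE1 it called entinostat in BRCA1+ (0.00139), entinostat in BRCA1-null (0.0362) and the lines with DMSO (0.00215). For entinostat, the members called were 2 in BRCA1+ and 1 in BRCA1-null with no filter, 4 in BRCA1-null with DESeq2 and 0 in BRCA1-null in a fit of those groups alone, where E2F targets were 1. Over all tested genes, no filter gave 2313 in BRCA1+ and 1635 in BRCA1-null of 22140. In BRCA1-null DESeq2 called 1669 of 17714 and the fit of those groups alone 693 of 17714. The p53 targets called were 1 in BRCA1+ with DESeq2, the stricter filter or only those groups, and 1 in BRCA1-null with DESeq2, its size factors or the stricter filter. Of all tested genes, these BRCA1+ settings called 2495 of 17714, 2454 of 15070 and 2546 of 17714. The BRCA1-null settings called 1669 of 17714, 1899 of 17714 and 1785 of 15070.

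With 1 library left out, members called ranged from 3 to 5 between lines with entinostat, 1 to 4 for entinostat in BRCA1+ and 0 to 3 in BRCA1-null. E2F targets ranged from 11 to 17, 1 to 9 and 1 to 3 in these comparisons, CDK partners from 0 to 9 in BRCA1+, and p53 targets from 0 to 2 in BRCA1+ and 0 to 1 in BRCA1-null.

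No value past the test turned sign. CDKN2A with entinostat in BRCA1+ was 4.27e-05 with DESeq2 size factors, 0.045 with upper-quartile scaling, 0.022 with the stricter filter, 5.84e-05 with DESeq2 and -0.11 to 0.12 without 1 library. In BRCA1-null, CDKN1C was 0.0041 with upper-quartile scaling and -0.26 to 0.19 without 1 library, CDKN2A -0.075 to 0.14 and CDKN2C -0.22 to 0.071. Between lines with DMSO, CDKN1A ranged from -0.11 to 0.28 and CCND1 from -0.13 to 0.042, and with entinostat CCND1 from -0.049 to 0.18 and CCNE1 from -0.26 to 0.051. Interactions with upper-quartile scaling were -0.0055 for CDKN1B, -0.00095 for CDKN2A and -0.030 for CDKN2D. CDKN2D was also -0.023 with the stricter filter, -0.014 with DESeq2 and -0.013 with the block. Without 1 library the interaction ranged from -0.12 to 0.17 for CDKN1B, -0.084 to 0.15 for CDKN2A, -0.12 to 0.20 for CDKN2B, -0.30 to 0.28 for CDKN2D, -0.11 to 0.078 for CCND2 and -0.12 to 0.018 for CCNE2. The causes were not tested. Over the single members, 134 of 150 alternative values between lines with DMSO kept direction and side of the threshold, as did 125 of 150 for entinostat in BRCA1+ and 120 of 150 in BRCA1-null.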
